A study of Sus scrofa with 6 samples.

Results

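The genes described here build and police the mitotic apparatus: kinetochore proteins, the spindle assembly checkpoint with the chromosomal passenger and anaphase proteins, spindle proteins, cytokinesis proteins, and condensin with its partners on chromatin. They were taken from a list of 58 symbols, and a row was kept where its pig Ensembl identifier carried one of these names. KNL1, MAD2L1, AURKA, PSRC1 and SMC2 on ENSSSCG00000005404 were named only from the study's table of differentially expressed mRNAs. Their inclusion therefore depended on the study's calls in these same samples. Of the 58 symbols, 47 had a row in the mRNA table, on 48 of its 14579 gene models, because SMC2 is carried by 2 identifiers. SPC24, CENPA, CENPN, CENPW, MIS18A, BIRC5, CDCA8, PTTG1, NUSAP1, PRC1 and ECT2 were not analysed here.

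The lungs came from 6 female piglets with a Tibetan sire and a Meishan dam. The fetal group held 3 piglets from 3 sows, taken on the last day before birth in a pregnancy counted as 113 days, and the neonatal group 3 piglets from 3 other sows, taken 2 days after birth. Each piglet gave 1 library of lung tissue, so each replicate is an animal of its own. No treatment was compared, and the pigs were killed by exsanguination after a ketamine injection. The paper mentions caesarean and parturition without stating the delivery of each group. Levels are FPKM, read fragments scaled to transcript length and to the number of mapped reads. Values in all samples are given in the order of the replicate numbers, Fetal1 to Fetal3 and Neonatal1 to Neonatal3.

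During mitosis the kinetochore assembles on centromeric chromatin and couples each chromosome to spindle microtubules. The checkpoint is a signal from unattached kinetochores that holds back the anaphase-promoting complex, a ubiquitin ligase, until all chromosomes are attached. Condensin compacts the chromosomes, and the cytokinesis proteins then divide the cell. Most of these transcripts accumulate late in the cell cycle and are low in resting cells, so that their level in a tissue is widely read as a mark of dividing cells. In bulk tissue, however, a larger number of dividing cells and more RNA per dividing cell cannot be told apart.

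After birth the mean log2(FPKM + 1) was higher in all 48 gene models, as it was in 59.9% of all mRNAs, and 41 of the 48 passed an adjusted p of 0.05 in limma, with Benjamini-Hochberg adjustment over all mRNAs. Over the whole table, 5.41% of the mRNAs were called higher by the same rule. The 41 include KNL1, MAD2L1, AURKA and SMC2 on ENSSSCG00000005404, which were named only through the study's calls in these samples. Median-of-ratios and quantile scaling each left 40 members past the threshold, with 4.46% and 4.59% of all mRNAs called higher. None of the members was called lower, and 0 reached an unadjusted p under 0.05 in that direction. The lowest neonatal value exceeded the highest fetal value in 43 of the 48, against 20.9% of all mRNAs. The median log2(FC), the difference on the log2(FPKM + 1) scale, was 1.76 over the members and 0.13 over all mRNAs. This scale understates the change of genes at low FPKM, and the ratio of the group means of FPKM had a median of 6.98 over the members. It was at least 2 for 45 members, at least 5 for 30 and at least 10 for 11, where 14.4%, 3.58% and 1.64% of the mRNAs with a fetal value reached these ratios.

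The deposited table kept mRNAs with more than 0.5 FPKM in at least 1 sample. In 9 members, ASPM, BUB1, CDCA2, CKAP2L, ESPL1, FOXM1, HJURP, NCAPG and SGO1, every fetal value was at or under 0.5 FPKM, so they were kept through their neonatal values alone. For these, at least 1 neonatal value had to exceed every fetal value. All 9 passed, against 10.1% of the 701 mRNAs kept in the same way. These 9 include 6 of the 11 members with a ratio of at least 10, which 151 of the 701 mRNAs reached. Without them 39 members remain, of which 32 passed, against 5.17% of the 13878 mRNAs with a fetal value above 0.5 FPKM. The 39 still include KNL1, MAD2L1, AURKA, PSRC1 and SMC2 on ENSSSCG00000005404, which were named only through the study's calls in these samples. All of these but PSRC1 passed, and no count was made without them. The count of 32 is therefore not free of selection by these data. The median log2(FC) of these 39 was 1.79, the groups did not overlap in 34, and the ratio of the means was at least 2 in 36, at least 5 in 21 and at least 10 in 5. No member was kept through its fetal values alone.

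**Figure D1:**
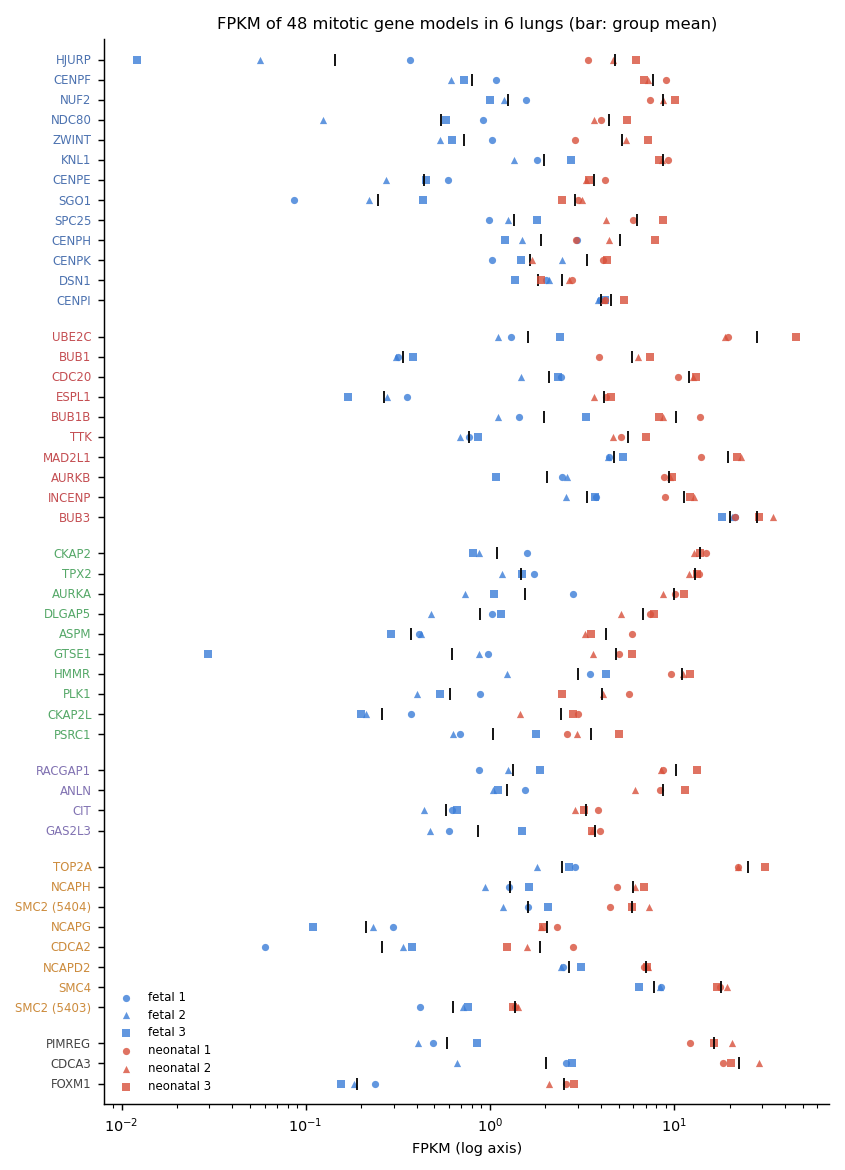
FPKM (log axis) of the 48 gene models in each of the 6 lungs, with fetal samples in blue, neonatal samples in red and the group means as black bars, ordered by function and by log2(FC) within it. The colours separate without overlap in 43 gene models, and CENPH, CENPK, DSN1, CENPI and BUB3 are those with overlap.

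In the fetal lungs these transcripts were scarce. Their mean FPKM ran from 0.145 for HJURP to 20.1 for BUB3, with a median of 1.25, and 46 of the 48 lay below the median of all mRNAs, which was 5.28 FPKM. In the neonatal lungs the median over the members was 5.93 FPKM, next to 5.98 FPKM for all mRNAs. Means below 1 FPKM were found for 21 members before birth, 9 of them the members kept through their neonatal values, and for 0 after it. No member was listed at 0 in any sample.

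Markers of the cell types in lung were followed over 35 of 48 listed genes. Of the epithelial markers, the surfactant gene SFTPC was the most abundant, at 3171, 3449.8 and 3902 FPKM before birth and 4233, 6097 and 8790.1 FPKM after it. PDPN was low, between 1.08 and 7.55 FPKM, and NKX2-1 was not analysed here. The airway gene SCGB1A1 had 139, 119 and 99.8 FPKM before birth and 62.2, 0.213 and 62.0 FPKM after it. It was lower in every neonatal sample but did not pass in limma (log2(FC) -2.82, adjusted p = 0.265). Of the 10 epithelial markers, 7 had a log2(FC) above 0 and 3 below it. Neutrophil markers moved with the groups, though S100A9 and S100A12 were named only from the study's table of differentially expressed mRNAs. Over S100A8, S100A9, S100A12 and CSF3R, 4 of 6 listed, their summed level was 81.1 to 153 FPKM before birth and 842 to 1311 FPKM after it, and the 3 calgranulins S100A8, S100A9 and S100A12 passed (adjusted p = 0.00254, 0.00197 and 0.00435). For 5 of 6 macrophage markers the sum was 114 to 339 FPKM before birth and 263 to 662 FPKM after it. All 5 had a higher neonatal mean and 4 an unadjusted p under 0.05 (17.6% of all mRNAs were higher at that level), but 0 passed in limma. Over 5 of 7 erythroid markers the sum was 1229.7 to 2679 FPKM before birth and 895 to 1462 FPKM after it, over 5 of 7 lymphocyte markers 7.11 to 8.06 FPKM before birth and 2.07 to 12.2 FPKM after it, with MS4A1 listed at 0 in Neonatal2. For 3 of 5 endothelial markers the sum was 181 to 211 FPKM before birth and 174 to 193 FPKM after it, for 3 of 5 mesenchymal markers 797 to 1012 FPKM before birth and 1020.2 to 1337 FPKM after it and for 10 of 12 epithelial markers 5192 to 6097 FPKM before birth and 6636 to 12174 FPKM after it, and 0 of these 16 passed. The part of these cells in the rise of the mitotic genes was not tested. The summed FPKM of all mRNAs lay between 339491 and 471220 before birth and between 491548 and 777982 after it, and between 3.02% and 5.68% of mRNAs were listed at 0.

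Of the 13 kinetochore genes, 9 rose, against 5.41% of all mRNAs called higher, and 4 did not pass. The median log2(FC) of the 13 was 1.70. HJURP, the chaperone that delivers the centromeric histone CENPA, had 0.367, 0.0563 and 0.0122 FPKM in Fetal1, Fetal2 and Fetal3 and 3.41, 4.69 and 6.23 FPKM in Neonatal1, Neonatal2 and Neonatal3 (log2(FC) 2.32, standard error 0.25, adjusted p = 0.00471). Its fetal values differed widely among themselves, and all of them lay far below the lowest neonatal value. HJURP was kept through its neonatal values alone, which favours such a separation. CENPF, a large outer kinetochore protein that accumulates before mitosis, had 1.07, 0.613 and 0.724 FPKM before birth and 9.10, 7.21 and 6.84 FPKM after it (log2(FC) 2.27, standard error 0.21, adjusted p = 0.00262). NUF2 and NDC80 form the arm of the NDC80 complex that grips microtubules. NUF2 stood at 1.57, 1.19 and 1.00 FPKM before birth and 7.41, 8.76 and 10.1 FPKM after it (log2(FC) 2.11, standard error 0.20, adjusted p = 0.00336). NDC80 itself stood at 0.921, 0.124 and 0.576 FPKM before birth and 4.03, 3.69 and 5.55 FPKM after it (log2(FC) 1.83, standard error 0.26, adjusted p = 0.0105). Both genes separated the groups, and the single lowest value was that of NDC80 in Fetal2. The other members that rose were SPC25, which anchors the same complex (log2(FC) 1.61), the scaffold KNL1 (log2(FC) 1.73), its partner ZWINT (log2(FC) 1.79), the kinetochore motor CENPE (log2(FC) 1.70) and SGO1, the guardian of centromeric cohesion (log2(FC) 1.65). The calls of HJURP, CENPF, NUF2, KNL1, CENPE and SGO1 held whichever of the 6 samples was dropped. Without Fetal2 or Neonatal3, NDC80 no longer passed, with an adjusted p of up to 0.0549. ZWINT fell short without Fetal1, Fetal2, Fetal3, Neonatal2 or Neonatal3 (adjusted p up to 0.102). Without Fetal1, Fetal2, Fetal3, Neonatal1 or Neonatal3, SPC25 no longer passed, with an adjusted p of up to 0.0995.

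The kinetochore genes that did not pass were CENPH, CENPI and CENPK, which belong to the constitutive network on centromeric chromatin, and DSN1 of the MIS12 complex, which links that network to the outer kinetochore. CENPI had 3.94, 3.88 and 4.19 FPKM before birth and 4.19981, 4.18 and 5.34 FPKM after it. Its log2(FC) was 0.15 with a 95% interval of -0.27 to 0.57 (adjusted p = 0.648), which lies wholly below the interval of CENPF, 1.79 to 2.75. DSN1 had 2.02, 2.10046 and 1.36 FPKM before birth and 2.81, 2.70 and 1.91 FPKM after it, and its log2(FC) was 0.30 with an interval of -0.21 to 0.80 (adjusted p = 0.442). In both genes the groups overlapped. CENPK had 1.02, 2.46 and 1.47 FPKM before birth and 4.10, 1.69 and 4.30 FPKM after it (log2(FC) 0.69, interval -0.09 to 1.47, adjusted p = 0.254), and only Neonatal2 lay within the fetal range. CENPH had 2.97, 1.49601 and 1.20 FPKM before birth and 2.93, 4.43 and 7.85 FPKM after it (log2(FC) 1.04, interval 0.20 to 1.87, adjusted p = 0.133), where Fetal1 and Neonatal1 met.

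**Figure D2:**
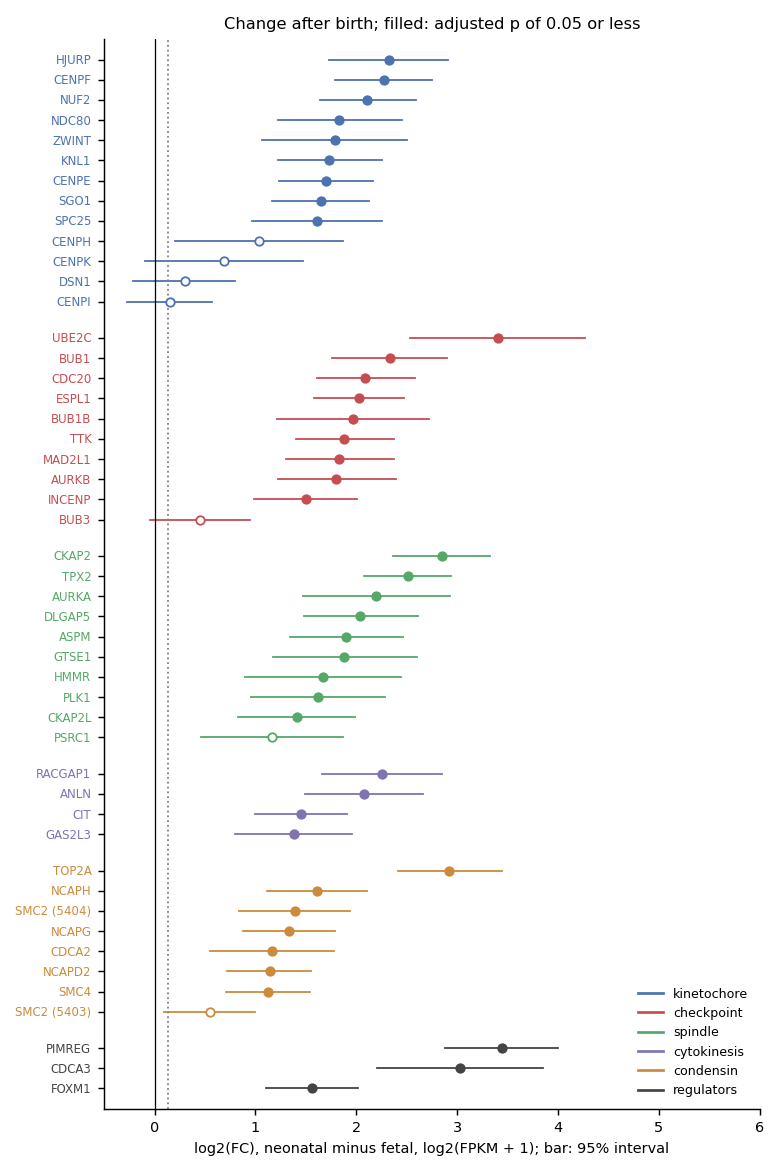
Difference of mean log2(FPKM + 1), neonatal minus fetal, for the 48 gene models with 95% intervals from limma. Filled points have an adjusted p of 0.05 or less, the dotted line is the median of all mRNAs at 0.13, and the 7 open points are CENPH, CENPK, DSN1, CENPI, BUB3, PSRC1 and SMC2 on ENSSSCG00000005403.

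Among the 10 genes of the checkpoint, the passenger complex and anaphase, 9 rose, against 5.41% of all mRNAs called higher. The median log2(FC) of the 10 was 1.93. The largest difference was that of UBE2C, the ubiquitin-conjugating enzyme that works with the anaphase-promoting complex, at 1.31, 1.10 and 2.40 FPKM in Fetal1, Fetal2 and Fetal3 and 19.7, 18.8 and 46.2 FPKM in Neonatal1, Neonatal2 and Neonatal3 (log2(FC) 3.40, standard error 0.37, adjusted p = 0.00471). Neonatal3 stood well above the other neonatal samples. BUB1, a checkpoint kinase docked on KNL1, had 0.316, 0.310 and 0.384 FPKM before birth and 3.94, 6.36 and 7.40 FPKM after it (log2(FC) 2.33, standard error 0.24, adjusted p = 0.00427). CDC20, which activates the anaphase-promoting complex and is the target of the checkpoint, had 2.45, 1.48 and 2.35 FPKM before birth and 10.5, 12.6 and 13.2 FPKM after it (log2(FC) 2.09, standard error 0.21, adjusted p = 0.00369). ESPL1, the separase that cuts cohesin at anaphase, had 0.356, 0.276 and 0.169 FPKM before birth and 4.27, 3.69 and 4.56 FPKM after it (log2(FC) 2.03, standard error 0.19, adjusted p = 0.00313). For BUB1, CDC20 and ESPL1 the neonatal means were 17.5, 5.78 and 15.6 times the fetal means, with no overlap between the groups. BUB1 and ESPL1, unlike CDC20, were kept through their neonatal values alone, which favours a high ratio and a separation. The core checkpoint proteins BUB1B, TTK and MAD2L1 rose with a log2(FC) of 1.97, 1.88 and 1.83, and the passenger complex kinase AURKB and its scaffold INCENP with a log2(FC) of 1.80 and 1.50. The calls of UBE2C, BUB1, CDC20, ESPL1 and TTK held whichever of the 6 samples was dropped. Without Fetal2, MAD2L1 no longer passed, with an adjusted p of up to 0.0525. AURKB fell short without Neonatal2 or Neonatal3 (adjusted p up to 0.0566). Without Fetal2, Neonatal2 or Neonatal3, INCENP no longer passed, with an adjusted p of up to 0.0632. BUB1B fell short without Fetal1, Fetal2, Neonatal2 or Neonatal3 (adjusted p up to 0.0877).

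BUB3, the adaptor shared by BUB1 and BUB1B, was the exception. It had 21.5, 20.5 and 18.3 FPKM before birth and 21.3, 34.5 and 29.0 FPKM after it, the highest fetal level of all members. Its log2(FC) was 0.45 with an interval of -0.05 to 0.95 (adjusted p = 0.246), and Neonatal1 lay within the fetal range. FPKM is a level per transcript length, so partners can be compared within a sample. The ratio of BUB1 to BUB3 went from 0.0169 ± 0.00352 in the fetal group to 0.208 ± 0.0410 in the neonatal group (SD, n = 3 each). That of BUB1B to BUB3 went from 0.101 ± 0.0702 in the fetal group to 0.395 ± 0.218 in the neonatal group (SD, n = 3 each). Both ratios separated the groups (exact permutation test, two-sided p = 0.1 each, the smallest that 3 against 3 allows, and 0.2 adjusted over the 16 ratios computed after the values had been seen). BUB1 was kept through its neonatal values alone, so the test of its ratio to BUB3 cannot decide on a shift.

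Of the 10 spindle genes, 9 rose, against 5.41% of all mRNAs called higher. In all 10 every neonatal value exceeded every fetal value, as in 20.9% of all mRNAs, and their median log2(FC) was 1.89. CKAP2, a microtubule-associated protein of the spindle, had 1.59, 0.869 and 0.814 FPKM in Fetal1, Fetal2 and Fetal3 and 14.9, 12.8 and 13.9 FPKM in Neonatal1, Neonatal2 and Neonatal3 (log2(FC) 2.85, standard error 0.21, adjusted p = 0.00142). TPX2, which activates the kinase AURKA and brings it to the spindle, had 1.74, 1.16 and 1.49991 FPKM before birth and 13.7, 12.0003 and 13.4 FPKM after it (log2(FC) 2.51, standard error 0.18, adjusted p = 0.00142). In both genes the spread within a group was small against the distance between the groups. AURKA had 2.84, 0.730 and 1.06 FPKM before birth and 10.1703, 8.69 and 11.3 FPKM after it (log2(FC) 2.20, standard error 0.31, adjusted p = 0.0100), with Fetal1 well above the other fetal samples. DLGAP5, which stabilises the fibres that reach the kinetochores, had 1.03, 0.481 and 1.15 FPKM before birth and 7.38, 5.15 and 7.79 FPKM after it (log2(FC) 2.04, standard error 0.24, adjusted p = 0.00583). ASPM, a protein of the spindle poles, and GTSE1, a protein of microtubule ends, rose with a log2(FC) of 1.90 and 1.88. Fetal3 held GTSE1 at only 0.0293 FPKM, against 0.975 and 0.874 FPKM in Fetal1 and Fetal2, and with a pseudocount of 0.1 its adjusted p was 0.0580. HMMR, a spindle assembly factor, the polo-like kinase PLK1 and CKAP2L followed with a log2(FC) of 1.67, 1.62 and 1.41.

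PSRC1, which binds microtubules, was the spindle gene that did not pass. It had 0.689, 0.634 and 1.79 FPKM before birth and 2.62, 2.96 and 5.03 FPKM after it (log2(FC) 1.16, interval 0.46 to 1.87, adjusted p = 0.0662). Fetal3 came closest to the neonatal samples. The count of 9 spindle genes fell to 5, 4 and 5 without Fetal1, Fetal2 or Fetal3, where 1.82%, 1.12% and 2.22% of all mRNAs were called higher. It fell to 5 without Neonatal2 or Neonatal3, where 1.48% and 1.75% were. The calls of CKAP2, TPX2, DLGAP5 and ASPM held whichever of the 6 samples was dropped. Without Fetal1, Fetal2, Fetal3 or Neonatal2, PLK1 no longer passed, with an adjusted p of up to 0.105. CKAP2L fell short without Fetal1, Fetal2, Fetal3 or Neonatal3 (adjusted p up to 0.0990). Without Fetal2, Fetal3, Neonatal2 or Neonatal3, AURKA no longer passed, with an adjusted p of up to 0.0610. GTSE1 fell short without Fetal1, Fetal2, Neonatal2 or Neonatal3 (adjusted p up to 0.0747). HMMR fell short whichever sample was dropped (adjusted p up to 0.116).

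All 4 cytokinesis genes rose, against 5.41% of all mRNAs called higher, and their median log2(FC) was 1.77. RACGAP1, part of the centralspindlin complex at the spindle midzone, had 0.871, 1.26 and 1.88 FPKM in Fetal1, Fetal2 and Fetal3 and 8.66, 8.51 and 13.4 FPKM in Neonatal1, Neonatal2 and Neonatal3 (log2(FC) 2.25, standard error 0.26, adjusted p = 0.00523). ANLN, the anillin that organises the contractile ring, had 1.56, 1.05 and 1.11 FPKM before birth and 8.36, 6.14 and 11.5 FPKM after it (log2(FC) 2.08, standard error 0.25, adjusted p = 0.00642). Neonatal3 was the highest sample for both genes. CIT, the citron kinase of the midbody, had 0.626, 0.442 and 0.666 FPKM before birth and 3.85, 2.88 and 3.26 FPKM after it (log2(FC) 1.45, standard error 0.20, adjusted p = 0.00867). GAS2L3, which ties actin to microtubules, had 0.597, 0.474 and 1.50262 FPKM before birth and 3.99, 3.56 and 3.59 FPKM after it (log2(FC) 1.38, standard error 0.25, adjusted p = 0.0219), with Fetal3 above the other fetal samples. Without Fetal2 the count of calls went from 4 to 2, where 1.12% of all mRNAs were called higher. The calls of RACGAP1 and ANLN held whichever of the 6 samples was dropped. Without Fetal2, CIT no longer passed, with an adjusted p of up to 0.0554. GAS2L3 fell short without Fetal1, Fetal2, Neonatal1, Neonatal2 or Neonatal3 (adjusted p up to 0.104).

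Of the 8 gene models of condensin and its partners, 7 rose, against 5.41% of all mRNAs called higher. The median log2(FC) of the 8 was 1.25. TOP2A, the topoisomerase that untangles replicated DNA, led them with 2.90, 1.80 and 2.67 FPKM in Fetal1, Fetal2 and Fetal3 and 22.3, 22.4 and 31.2 FPKM in Neonatal1, Neonatal2 and Neonatal3 (log2(FC) 2.92, standard error 0.22, adjusted p = 0.00147). NCAPH, the kleisin that closes the condensin I ring, had 1.28, 0.935 and 1.63 FPKM before birth and 4.89, 6.10 and 6.87 FPKM after it (log2(FC) 1.61, standard error 0.21, adjusted p = 0.00835). The core ATPase SMC2 was represented by a pair of identifiers, between which the authors' counting may have split its reads, so its level is uncertain. ENSSSCG00000005404 had 1.62, 1.18 and 2.06 FPKM before birth and 4.48, 7.28 and 5.88 FPKM after it (log2(FC) 1.39, standard error 0.24, adjusted p = 0.0180). ENSSSCG00000005403 had 0.418, 0.712 and 0.763 FPKM before birth and 1.36, 1.41 and 1.33 FPKM after it and did not pass (log2(FC) 0.55, interval 0.09 to 1.00, adjusted p = 0.146), although its groups did not overlap. NCAPG, a regulatory subunit of condensin I, had 0.296, 0.233 and 0.109 FPKM before birth and 2.33, 1.89 and 1.94 FPKM after it (log2(FC) 1.33, standard error 0.19, adjusted p = 0.0109). The neonatal values of NCAPG were low in FPKM, but the neonatal mean was 9.65 times the fetal mean. NCAPG was kept through its neonatal values alone, which favours a high ratio. The subunit NCAPD2 and the ATPase SMC4 rose with a log2(FC) of 1.14 and 1.12, and CDCA2, which brings a phosphatase to chromatin as cells leave mitosis, with a log2(FC) of 1.16.

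Most of these calls were lost in at least 1 of the fits that left out a sample, which hold fewer samples. The 7 became 3, 1, 3 and 3 without Fetal1, Fetal2, Neonatal2 or Neonatal3. In these fits 1.82%, 1.12%, 1.48% and 1.75% of all mRNAs were called higher. The call of TOP2A held whichever of the 6 samples was dropped. Without Fetal2, NCAPH and NCAPG no longer passed, with an adjusted p of up to 0.0562. ENSSSCG00000005404, NCAPD2 and SMC4 fell short without Fetal1, Fetal2, Neonatal2 or Neonatal3 (adjusted p up to 0.0958). CDCA2 fell short whichever sample was dropped (adjusted p up to 0.137). CDCA2 also missed the threshold with a pseudocount of 0.1 and under median-of-ratios or quantile scaling, with an adjusted p of up to 0.111 over the alternatives with all samples.

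The ratio of the group means differed among the condensin subunits. SMC4 was the most abundant in both groups, at 7.77 ± 1.13 to 18.0249 ± 1.21 FPKM (SD, n = 3 each), and its neonatal mean was 2.32 times the fetal mean. For NCAPD2 this ratio of the means was 2.63 and for NCAPH 4.65. NCAPG relative to SMC4 went from 0.0266 ± 0.00913 in the fetal group to 0.114 ± 0.0169 in the neonatal group (SD, n = 3 each), and NCAPH relative to NCAPD2 from 0.473 ± 0.0775 in the fetal group to 0.841 ± 0.129 in the neonatal group (SD, n = 3 each). Both within-sample ratios separated the groups (exact permutation test, two-sided p = 0.1 each, 0.2 adjusted over the same 16 ratios). NCAPG was kept through its neonatal values alone, so the test of its ratio to SMC4 cannot decide on a shift. NCAPD2 relative to SMC4 was 0.356 ± 0.110 and 0.393 ± 0.0218 (SD, n = 3 each), with overlap (exact permutation test, two-sided p = 0.4). In the NDC80 complex, NDC80 relative to NUF2 was 0.422 ± 0.275 and 0.505 ± 0.0730 (SD, n = 3 each), with the neonatal values inside the fetal range. The ratio of the outer kinetochore gene NUF2 to the inner gene CENPI went from 0.314 ± 0.0804 in the fetal group to 1.91 ± 0.167 in the neonatal group (SD, n = 3 each), with all neonatal values above the fetal ones (exact permutation test, two-sided p = 0.1, adjusted 0.2).

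The 3 remaining members were the transcription factor FOXM1, which drives genes of late cell cycle, CDCA3, a factor of mitotic entry, and PIMREG, a regulator whose transcript rises in mitosis. PIMREG had 0.492, 0.405 and 0.847 FPKM in Fetal1, Fetal2 and Fetal3 and 12.2, 20.5 and 16.5 FPKM in Neonatal1, Neonatal2 and Neonatal3 (log2(FC) 3.44, standard error 0.24, adjusted p = 0.00132), the largest difference of all 48. CDCA3 had 2.60, 0.662 and 2.78 FPKM before birth and 18.4, 28.9 and 20.4 FPKM after it (log2(FC) 3.03, standard error 0.35, adjusted p = 0.00541). FOXM1 was far less abundant, at 0.237, 0.182 and 0.155 FPKM before birth and 2.60, 2.09934 and 2.88 FPKM after it (log2(FC) 1.56, standard error 0.20, adjusted p = 0.00718). In each of the 3 genes the groups were widely apart, and each call held with any of the 6 samples left out. FOXM1 was kept through its neonatal values alone, which favours such a separation.

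The level of the members also varied among the lungs of a group. Their summed FPKM was 95.7, 78.1 and 92.3 in the fetal samples and 372, 402 and 460.2 in the neonatal samples. Fetal2 held the lowest fetal value for 28 of the 48 gene models, while Fetal1 and Fetal3 held the highest for 22 each. Among the neonatal samples, Neonatal3 was highest for 24, Neonatal1 for 14 and Neonatal2 for 10. As a share of the summed FPKM of all mRNAs, the members held 0.0225%, 0.0230% and 0.0196% in the fetal samples. In Neonatal1, Neonatal2 and Neonatal3 the share was 0.0757%, 0.0666% and 0.0592%. The order of the lungs within each group therefore depends on the scaling. Divided by each gene's fetal mean, the values had a member median of 6.64, 5.80 and 7.58 in Neonatal1, Neonatal2 and Neonatal3. The order changed with the class. Spindle genes had median ratios of 8.81, 5.80 and 8.95 in these samples, and condensin genes 3.29, 4.63 and 4.19942. The coefficient of variation within a group had a median of 36.1% in the fetal and 20.7% in the neonatal group over the members, and of 22.6% and 26.6% over all mRNAs.

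**Figure D3:**
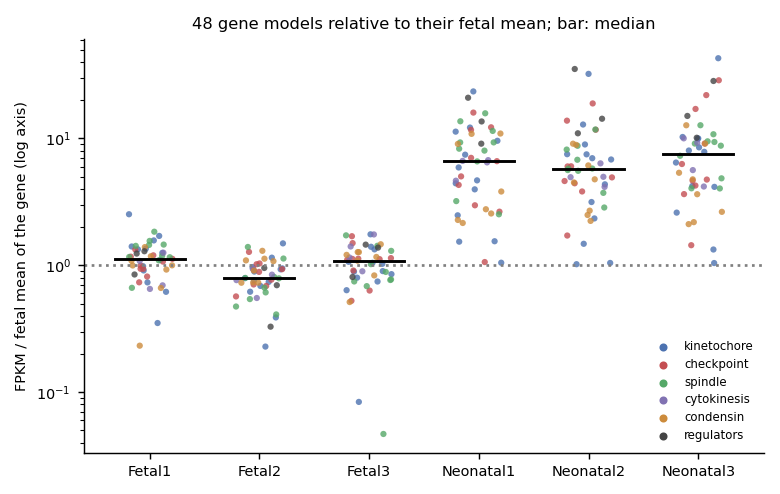
FPKM of each of the 48 gene models divided by its fetal mean (log axis) in the 6 samples, coloured by class, with black bars at the medians. The neonatal medians lie between 5.80 and 7.58, and the fetal medians between 0.794 and 1.12.

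The number of calls fell whichever sample was left out, in fits that hold fewer samples. Leaving out Fetal1, Fetal2 or Fetal3 gave 29, 22 and 34 members called higher, against 1.82%, 1.12% and 2.22% of all mRNAs. Leaving out Neonatal1, Neonatal2 or Neonatal3 gave 37, 28 and 26 members, against 5.38%, 1.48% and 1.75% of all mRNAs. All 48 differences kept their sign in each of these fits, and 21 of the 41 calls held in every one of them.

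Mitotic genes outside the list were counted by complex, over 63 genes with a row. Of these, 15 passed (23.8%), all of them higher, and the median log2(FC) was 0.34. Over all mRNAs, 5.41% were called higher. Among the 15, CENPO and ESCO2 were named only from the study's table of differentially expressed mRNAs. Under median-of-ratios scaling the count of 15 became 10 higher and 2 lower, the latter being ESCO1 and NFYB. There, 4.46% of all mRNAs were called higher and 2.3% lower. Quantile scaling gave 11 higher and the same 2 lower, against 4.59% higher and 3.33% lower of all mRNAs. SKA3, ANAPC7, NCAPD3, HAUS7 and TFDP1 fell short under median-of-ratios scaling. The count of 15 became 3, 2 and 6 when Fetal1, Fetal2 or Fetal3 was dropped, against 1.82%, 1.12% and 2.22% of all mRNAs. It became 3 and 5 when Neonatal2 or Neonatal3 was dropped, against 1.48% and 1.75%. CENPT and CDCA5 passed under each of the 13 alternatives. Further kinetochore and checkpoint genes had a median log2(FC) of 0.93, and 6 of 17 passed. These were CENPT, which bridges centromeric chromatin and the NDC80 complex (log2(FC) 1.87, standard error 0.19, adjusted p = 0.00373), the SKA complex genes SKA1 and SKA3, which couple kinetochores to moving microtubule ends (log2(FC) 1.61 and 1.30), SGO2, the partner of SGO1 (log2(FC) 1.50), CENPO (log2(FC) 1.12) and ZWILCH of the complex that recruits dynein (log2(FC) 1.05). CENPT stood at 0.815, 0.846 and 1.08 FPKM before birth and 5.24, 6.63 and 6.13 FPKM after it, and the groups did not overlap. CENPS, which binds centromeric DNA with its partners, did not pass over all mRNAs (log2(FC) 1.28, adjusted p = 0.0546), although every neonatal value lay above the fetal ones, at 6.23, 2.78 and 4.25 FPKM before birth and 8.94, 10.6 and 16.9 FPKM after it. It passed when only mRNAs above 1 FPKM in 3 samples were tested (adjusted p = 0.0433), which gave 7 of 15 for this list and 16 of all related genes. CENPC, the base of the constitutive network, had 7.66, 7.45 and 6.20 FPKM before birth and 6.80, 8.0021 and 6.63 FPKM after it and a log2(FC) of 0.01 (interval -0.41 to 0.42).

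Of 10 genes of the anaphase-promoting complex and its regulators, 2 passed, where 5.41% of all mRNAs were called higher, and the median log2(FC) was 0.29. The 2 were FBXO5, an inhibitor of the complex (log2(FC) 1.34, adjusted p = 0.0223), and the subunit ANAPC7 (log2(FC) 0.75, adjusted p = 0.0483). ANAPC15 and the activator FZR1 were the most abundant of the rest by the mean over all samples, with a log2(FC) of 0.67 and 0.34. For cohesin, the ring that holds sister chromatids together, 14 genes were measured and the median difference on the log2(FPKM + 1) scale was -0.01. The 2 that passed were CDCA5, the sororin that stabilises cohesin in dividing cells, at 0.307, 0.196 and 0.692 FPKM before birth and 3.39, 5.60 and 4.94 FPKM after it (log2(FC) 2.01, standard error 0.24, adjusted p = 0.00648), and the acetyltransferase ESCO2 (log2(FC) 1.11, adjusted p = 0.0201). The core subunit SMC3 had 28.8, 23.6 and 25.5 FPKM before birth and 23.9, 34.8 and 32.0172 FPKM after it, with a log2(FC) of 0.20 (interval -0.27 to 0.67). The core subunit STAG2 had 28.8, 30.0 and 26.7 FPKM before birth and 23.2, 20.1 and 23.8 FPKM after it, with a log2(FC) of -0.34 (interval -0.72 to 0.05). The cohesin acetyltransferase ESCO1, the counterpart of ESCO2, had 22.9, 23.2 and 23.3 FPKM before birth and 10.2096, 13.8 and 15.9813 FPKM after it, lower in every neonatal sample but not past the threshold (log2(FC) -0.77, adjusted p = 0.0634).

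Condensin II acts earlier in mitosis than condensin I, and its 3 specific subunits had a median log2(FC) of 0.92. NCAPG2 (log2(FC) 1.49, adjusted p = 0.0105) and NCAPD3 (log2(FC) 0.92, adjusted p = 0.0452) passed and NCAPH2 did not (log2(FC) 0.54, adjusted p = 0.188). Among 10 genes of the gamma-tubulin ring and of augmin, which nucleate spindle microtubules, only HAUS7 passed (log2(FC) 0.82, adjusted p = 0.0423). Over all mRNAs 5.41% were called higher, and the median log2(FC) of these 10 was 0.29. TUBGCP2 and TUBGCP3 were the most abundant of the others, with a log2(FC) of 0.39 and 0.38. Of 9 genes of the MuvB complex and the factors that act with it on late cell cycle promoters, MYBL2 and TFDP1 passed. MYBL2 had 0.195, 0.208 and 0.556 FPKM before birth and 4.37, 4.71 and 2.04 FPKM after it (log2(FC) 1.79, standard error 0.29, adjusted p = 0.0157), with every neonatal value above the fetal ones. TFDP1 had a log2(FC) of 0.93 (adjusted p = 0.0347). NFYC and NFYB, subunits of the CCAAT-binding factor and the most abundant of the rest by the mean over all samples, had a log2(FC) of 0.45 and -0.64. E2F4, more abundant than NFYB after birth, passed only without Neonatal1 (log2(FC) 0.76, adjusted p = 0.101 with all samples and 0.0455 without it).

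**Figure D4:**
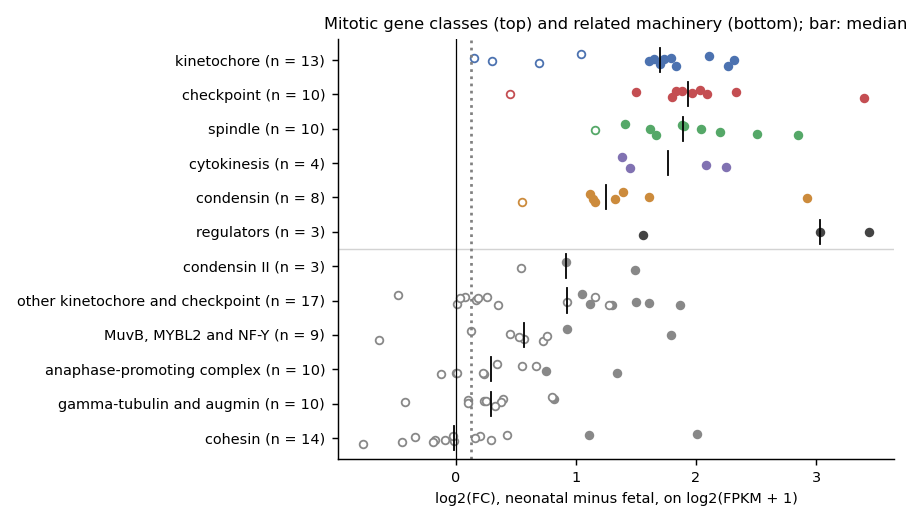
Difference of mean log2(FPKM + 1), neonatal minus fetal, for each gene model of the 6 member classes (top) and of 6 lists of related machinery (bottom), filled where the adjusted p is 0.05 or less, with bars at the medians and a dotted line at the median of all mRNAs, 0.13. The class medians run from 1.25 for condensin to 3.03 for the regulators, and those of the related lists from -0.01 for cohesin to 0.93 for the other kinetochore and checkpoint genes.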

How the data were processed

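The authors depleted lung RNA of ribosomal RNA (Ribo-Zero) and made 1 stranded library per piglet. Reads were mapped to Sscrofa10.2 with TopHat 2.1.0, and the deposited mRNA values are FPKM that the authors computed with Cufflinks 2.2.1, keeping mRNAs with FPKM above 0.5 in at least 1 sample. The mapped reads per library are stated in the study but are not in the FPKM table, which holds no read counts per gene, so no counting error is given. The deposited lncRNA table was not used. All 6 value columns were matched to samples by name. Of the 48 gene models, 43 were named by an Ensembl identifier table. The other 5 were named by the study's table of differentially expressed mRNAs, of which 1998 rows were used. Its fold changes and q values were not used, but it lists only mRNAs that the study called in these samples. CENPO, ESCO2, SFTPA1, S100A9 and S100A12 of the other lists were named in the same way. Groups were compared with limma 3.58.1 (R 4.3.3) on log2(FPKM + 1) over all 14579 mRNAs, with a mean-variance trend and Benjamini-Hochberg adjustment, and an adjusted p of 0.05 or less passed. The fit was also run on simulated data with independent normal errors, and no result here rests on that run. Within-sample ratios were compared with exact permutation tests in scipy 1.17.1. The 13 alternatives were pseudocounts of 0.5 and 0.1, keeping mRNAs above 1 FPKM in 3 samples or more, scaling by median of ratios or by quantiles, no variance trend, a block for the replicate number, and dropping each sample. Every member could be named. Values in all samples are given for up to 4 members per class with the largest rise and for those that did not pass or overlapped. In related lists, genes that passed and up to 2 others with the highest mean FPKM over all samples were named, some without values per sample. ESCO1 and E2F4 were named after their values were seen. The members and lists were chosen with earlier results of these data known. A planned search of promoters for motifs was not run.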

Additional observations from a re-analysis of the deposited data

How the results depend on the processing

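All 48 differences kept their direction in each of the 13 alternatives, and of 624 member results 542 kept their side of the threshold and 82 lost it. That of CENPI, however, fell to a log2(FC) of 0.0 among the alternatives with all samples (limma, adjusted p up to 0.990). Dropping each sample in turn, the members called higher numbered 22 to 37, against 163 to 785 of all mRNAs called higher (789 with all samples) and 33 to 159 called lower (212 with all samples). By class the calls were 1 to 6 for condensin, 2 to 4 for cytokinesis and 4 to 8 for the spindle, and in the related lists 1 to 5 for other kinetochore and checkpoint genes, 0 to 1 for the anaphase-promoting complex, 1 to 2 for cohesin, 0 to 1 for condensin II, 0 to 1 for gamma-tubulin and augmin and 0 to 2 for MuvB and its partners. Fewer samples enter these fits. A block for the replicate number left 33 members (2.3% of all mRNAs higher), 336 mRNAs higher and 65 lower, 3 condensin gene models, 3 other kinetochore genes, 1 gene each for cohesin, condensin II and MuvB, and 0 for the anaphase-promoting complex and for gamma-tubulin and augmin. The deviations of same-numbered samples from their group means correlated at -0.041, -0.004 and 0.000 over the mRNAs, no sample correlated best with its own number, and the sows differed, so the numbers do not pair the samples. Median-of-ratios scaling gave 335 mRNAs lower and quantile scaling 486, each with 1 cohesin gene and 1 MuvB-related gene lower. Median-of-ratios left 1 gene higher for MuvB, for the anaphase-promoting complex and for condensin II and 0 for gamma-tubulin and augmin. Quantile scaling left 1 for the anaphase-promoting complex and for condensin II and 0 for gamma-tubulin and augmin. Without a variance trend 1 gene of the anaphase-promoting complex passed, and with a pseudocount of 0.1, 1 of condensin II. Smaller pseudocounts raised the median log2(FC) of the members from 1.76 to 2.14 at 0.5 and 2.66 at 0.1, and both scalings lowered it to 1.63, while the median log2(FC) of all mRNAs, 0.13 with the reported settings, went to -0.009 under median-of-ratios and -0.038 under quantile scaling. The cause was not tested. The planned search of promoters for motifs was not run.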
